A study of Homo sapiens with 16 samples.

Results

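The mitochondrially encoded respiratory chain genes considered here are 10 protein-coding genes of the human mitochondrial genome, MT-ND1, MT-ND2, MT-ND3, MT-ND4, MT-ND5, MT-CYB, MT-CO1, MT-CO2, MT-CO3 and MT-ATP6. They were picked by symbol, with earlier results of these data known. Each of the 10 symbols matched a row of the count table, which holds 59428 rows in all and 37 rows of the mitochondrial genome. OVCAR3 (BRCA1 wild type) and UWB1.289 (BRCA1 mutated) are serous ovarian carcinoma cell lines, and the study asked how olaparib, an inhibitor of the PARP enzymes of DNA repair, changes their gene expression. The 4 groups were OVCAR3 with DMSO, OVCAR3 with 7.5 µM olaparib, UWB1.289 with DMSO and UWB1.289 with 3.5 µM olaparib, each kept for 96 h and sequenced in 4 replicates (16 libraries). All groups received the solvent DMSO, each dose was the half-maximal inhibitory concentration the study had determined for that line, and OVCAR3 was grown in RPMI1640 with serum and insulin and UWB1.289 in a mixture of MEGM and RPMI1640 with less serum. Each BRCA1 status is represented by 1 cell line, so effects of the line, of its BRCA1 status, of the dose and of the medium cannot be told apart.

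The mitochondrial genome is a small circle, present in many copies per cell, whose 2 strands are each transcribed as long precursors that cover many genes. The precursors are cut mostly at the tRNAs that lie between the coding genes, and most of the released mRNAs receive short poly(A) tails. The levels of mRNAs made from the same precursor are therefore set largely by processing and stability. The proteins are core subunits of the respiratory chain, the inner membrane complexes that pass electrons to oxygen and drive ATP synthesis, and each is assembled with subunits encoded in the nucleus.

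The 3′ ends of the 10 genes are shown first because the libraries were primed at poly(A) tails, and in this genome the tail itself can complete the stop codon. Each line gives the last 30 bases of the gene on the plus strand of hg38 chromosome M, 5′ to 3′, as annotated in GENCODE release 44, and the capitals mark the letters of the stop codon that the genome encodes.
MT-ND1 (chrM:4233-4262): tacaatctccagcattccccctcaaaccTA
MT-ND2 (chrM:5482-5511): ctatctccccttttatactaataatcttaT
MT-CO1 (chrM:7416-7445): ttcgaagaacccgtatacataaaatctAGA
MT-CO2 (chrM:8240-8269): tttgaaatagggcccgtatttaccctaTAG
MT-ATP6 (chrM:9178-9207): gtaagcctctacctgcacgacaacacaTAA
MT-CO3 (chrM:9961-9990): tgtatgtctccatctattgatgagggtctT
MT-ND3 (chrM:10375-10404): gactacaaaaaggattagactgaaccgaaT
MT-ND4 (chrM:12108-12137): accccgacatcattaccgggttttcctctT
MT-ND5 (chrM:14119-14148): ctcatcctaaccctactcctaatcacaTAA
MT-CYB (chrM:15858-15887): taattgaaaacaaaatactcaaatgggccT
In 6 of the 10 genes the stop codon is incomplete in the genome, with T alone in MT-ND2, MT-CO3, MT-ND3, MT-ND4 and MT-CYB and TA in MT-ND1. The other 4 genes end in a whole stop codon, which is AGA in MT-CO1, TAG in MT-CO2 and TAA in MT-ATP6 and MT-ND5. All 10 genes lie on the plus strand as 1 exon each. MT-ATP6 shares 46 bases with MT-ATP8 and 1 base with MT-CO3, and MT-ND4 shares 7 bases with MT-ND4L, so reads in these stretches are uncertain between the neighbours. MT-ATP8 with MT-ATP6, and MT-ND4L with MT-ND4, are known to lie on shared mRNAs.

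Libraries held between 5599571 and 7730228 counts. The 10 genes together received 320536 to 508104 counts per library, and a single gene between 6695 and 97833, so counting error is small beside the spread between replicates. Within the groups, OVCAR3 olaparib replicate 4 stood farthest from the others, with a chi-square per gene of 8.43 to 13.0 against the other 3 libraries, which differed among themselves by 3.67 to 4.70. Of 8 markers of serous carcinoma all were counted in OVCAR3, while in UWB1.289 WT1, a transcription factor typical of these tumours, had 0 to 3 counts. Among markers of other cells, COL3A1 and LUM of fibroblasts were at 0 in all libraries and the T cell gene CD3E had at most 1 count. The summed level, in counts scaled to a common library size (CPM), of the 4 leukocyte markers was 0 to 0.827 CPM in OVCAR3 and 5.67 to 13.6 CPM in UWB1.289, that of the 4 fibroblast markers 21.4 to 38.9 and 3.07 to 5.95 CPM, and that of the 3 endothelial markers 0.331 to 2.60 and 5.28 to 10.1 CPM. Some of these sums moved with olaparib. The sum of the 8 carcinoma markers was lower with olaparib in both lines without overlap, at 3979 to 4255 CPM with DMSO and 2498 to 2789 CPM with olaparib in OVCAR3 and at 7387 to 8007 and 5810 to 7142 CPM in UWB1.289. In raw counts only the keratins KRT8 and KRT18 fell without overlap in both lines. KRT18 in OVCAR3 had 9696 to 12613 counts with DMSO and 5160 to 7268 with olaparib. The ranges of the other carcinoma markers overlapped or met, and KRT7 in OVCAR3 had 1966 to 2471 and 2423 to 3211 counts. The fibroblast sum, nearly all COL1A1, was 21.4 to 30.4 CPM with DMSO and 30.4 to 38.9 CPM with olaparib in OVCAR3. Their part in the results was not tested.

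The 10 mRNAs took up a similar share of the transcriptome in every group. They held 6.18% ± 0.552 (SD, n = 4) of all counts in OVCAR3 with DMSO, 6.33% ± 0.882 in OVCAR3 with olaparib, 6.80% ± 0.327 in UWB1.289 with DMSO and 6.75% ± 0.442 in UWB1.289 with olaparib. Single libraries ranged from 5.33% to 7.47%, both in OVCAR3 with olaparib. The ranges of DMSO and olaparib overlapped in each line. In UWB1.289 they were 6.52% to 7.22% with DMSO and 6.37% to 7.38% with olaparib. In bulk RNA, fewer mitochondrial transcripts per cell and a larger amount of other RNA cannot be told apart.

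**Figure D1:**
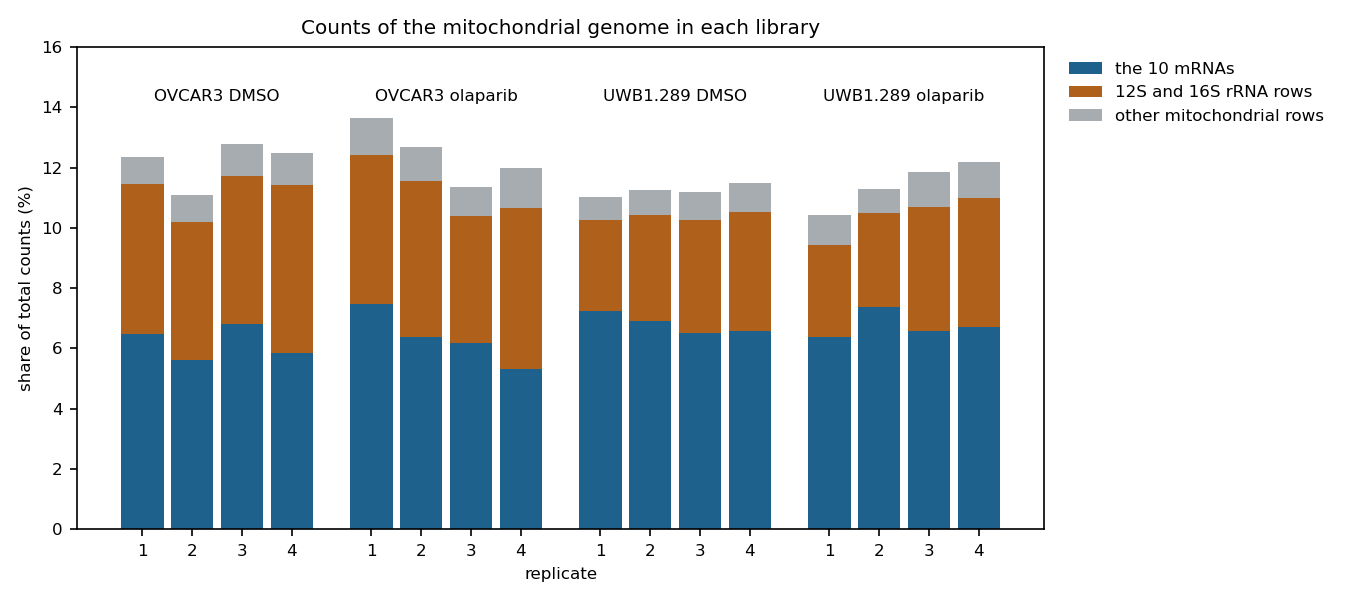
Share of all counts in each library (y axis, percent) held by the 10 mRNAs (blue), the 12S and 16S rRNA rows (brown) and the other rows of the mitochondrial genome (grey), by replicate and group. The blue share lay between 5.33% and 7.47% in all 16 libraries, and the brown share was lower in UWB1.289.

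Levels of the 10 mRNAs per kilobase spanned more than an order of magnitude in each group, and MT-ND1, MT-ND5 and MT-CO1 closed the order in all groups. Levels are given in CPM, counts scaled to a common library size, after trimmed mean of M values (TMM) scaling over the 16 libraries. Per kilobase of gene, MT-ND3, a small complex I subunit, was highest in each group, at 23531 ± 1774 CPM per kb in OVCAR3 with DMSO and 18949.9 ± 1073 in UWB1.289 with DMSO (SD, n = 4). MT-CO1, the catalytic subunit of complex IV, was lowest in each group, at 885 ± 84.9 and 1217 ± 40.7 CPM per kb. Since reads of this library type come from 3′ ends, counts need not grow with length, and without division by length MT-CO1 also came last in every group, while MT-ND3 was at rank 4 in OVCAR3 and rank 6 in UWB1.289. The genes annotated next after MT-CO1 and MT-ND5, MT-TS1 and MT-ND6, lie on the other strand. Reads of an mRNA that extends past its annotated end fall outside its row, and whether any of the mRNAs did so was not tested. In OVCAR3 with DMSO the order per kilobase after MT-ND3 was MT-ATP6, MT-CO3, MT-CO2, MT-ND4, MT-ND2, MT-CYB, MT-ND1, MT-ND5 and MT-CO1. The replicates of MT-ATP6 and MT-CO3 overlapped there, as did those of each neighbouring pair from MT-CO2 to MT-CYB, whereas MT-ND1, MT-ND5 and MT-CO1 were each apart from the gene before. In UWB1.289 with DMSO the same 3 genes closed the order, and MT-ND1 overlapped MT-CYB.

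**Figure D2:**
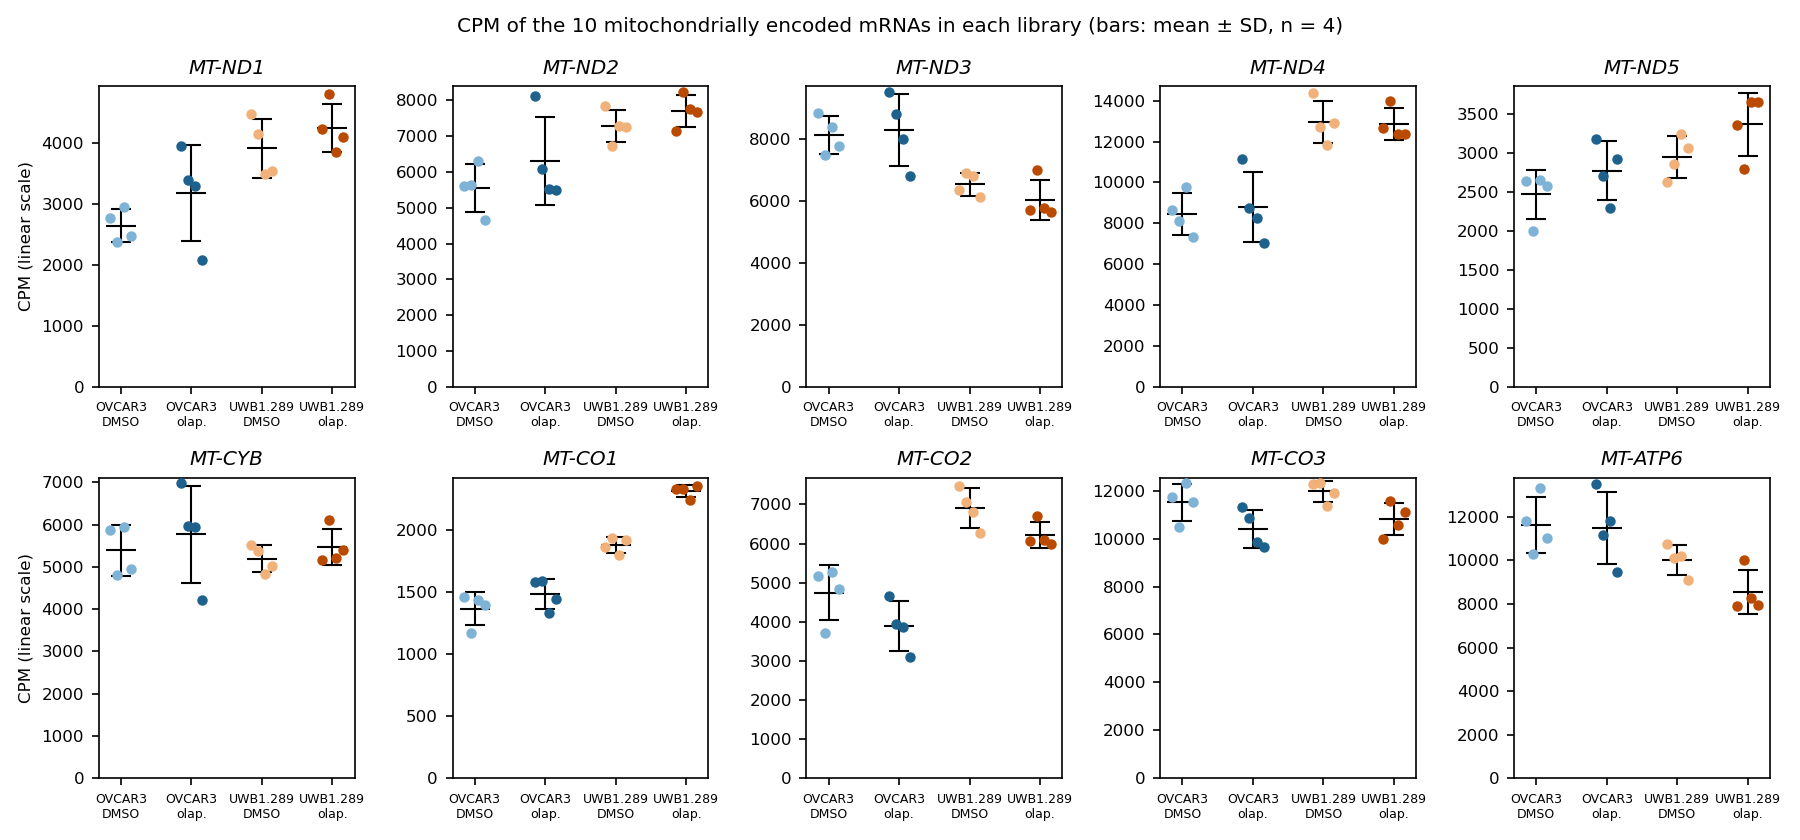
Level of each of the 10 mRNAs (y axis, CPM after TMM scaling, linear from 0) in the 16 libraries, with points for replicates and bars for mean ± SD (n = 4 per group). MT-CO1 is the gene whose UWB1.289 olaparib points, from 2241 to 2349.7 CPM, all lie above those of UWB1.289 with DMSO, from 1794 to 1933 CPM.

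To ask whether olaparib changed these mRNAs in the BRCA1 wild-type line, the 8 OVCAR3 libraries were compared. Among the 10 genes, 1 fell, none rose and none changed by more than 2-fold, with log2 fold changes from -0.28 to 0.27. Of all 13031 genes tested in this comparison 31.5% passed the same threshold, an edgeR quasi-likelihood test with an adjusted p below 0.1 (15.5% higher and 16% lower), and 5.23% also changed by more than 2-fold with an average count above 10. The median log2 fold change was 0.08 over the 10 genes and -0.01 over all genes, and 7 of the 10 values were positive. The 95% intervals of all 10 genes lay within -0.51 and 0.54, so a doubling or a halving of any of these mRNAs is outside them. The levels in DMSO and olaparib overlapped for all 10 genes, whereas they did not overlap for 25.7% of all genes.

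The gene that fell was MT-CO2, the complex IV subunit that receives electrons from cytochrome c. Its level was 5162, 3721, 5271 and 4837 CPM with DMSO and 4665, 3942, 3874 and 3110.2 CPM with olaparib. The DMSO library of replicate 2 lay below 3 of the 4 olaparib libraries, and the others lay above all olaparib libraries. The log2 fold change was -0.28 (SE 0.108, adjusted p = 0.0635 in edgeR's quasi-likelihood test), and the call was lost without DMSO replicate 1, 3 or 4 or without olaparib replicate 2 or 3. As a share of the summed counts of the 10 genes, MT-CO2 went from 7.65% ± 0.715 with DMSO to 6.23% ± 0.204 with olaparib, with ranges of 6.63% to 8.26% and 5.95% to 6.44% that did not overlap. It was the only one of the 10 genes whose share did not overlap in OVCAR3.

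MT-ND1, a membrane subunit of complex I next to the quinone site, had the largest positive difference in OVCAR3. Its level was 2778, 2375, 2951 and 2479.6 CPM with DMSO and 3956, 3392, 3291 and 2083 CPM with olaparib. With olaparib 3 libraries were above all DMSO libraries, and replicate 4 was below all of them. The log2 fold change of 0.27 (SE 0.128) did not pass the test, with an adjusted p = 0.135 in edgeR. Without olaparib replicate 4 it was 0.43 with an adjusted p = 1.19e-05, and MT-ND2 and MT-CYB passed there too, with log2 fold changes of 0.25 and 0.23.

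In the BRCA1-mutated line, MT-CO1 passed the test as higher with olaparib, and MT-ATP6 passed as lower just inside the threshold. The other 8 mRNAs did not pass the test. Of all 12748 genes tested 13.9% passed (7.77% higher and 6.1% lower), and 14.7% did not overlap between the groups, as against 1 of the 10 genes. The log2 fold changes of the 10 genes ran from -0.23 to 0.30 with a median of 0.04, beside -0.004 over all genes, and their 95% intervals lay within -0.40 and 0.44. None passed 2-fold, beside 2.21% of all genes past that limit.

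MT-CO1 measured 1862, 1933, 1794 and 1916 CPM with DMSO and 2327, 2328, 2241 and 2349.7 CPM with olaparib in UWB1.289. All 4 olaparib libraries were above all 4 DMSO libraries. The log2 fold change was 0.30 (SE 0.0682, adjusted p = 0.00567 in edgeR), and it remained past the threshold under each alternative and without each library in turn. Its share of the counts of the 10 genes lay between 2.53% and 2.86% with DMSO and between 3.16% and 3.60% with olaparib, again without overlap. In OVCAR3 the same gene measured 1459.9, 1172, 1430.1 and 1397 CPM with DMSO and 1579, 1588, 1330.2 and 1439 CPM with olaparib, where the groups overlapped and the log2 fold change was 0.12 (SE 0.0788, adjusted p = 0.276).

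MT-ATP6, a membrane subunit of the proton channel of ATP synthase, measured 10739, 10117, 10184 and 9082 CPM with DMSO and 7928, 10036, 8267 and 7966 CPM with olaparib in UWB1.289. Olaparib replicate 2 lay among the DMSO values, and the other 3 were below all of them. The log2 fold change was -0.23 (SE 0.0845, adjusted p = 0.0964 in edgeR), just inside the threshold. The call was lost under 4 of the other fits, at an adjusted p below 0.05 and without any single library other than DMSO replicate 4 or olaparib replicate 2, and without olaparib replicate 2 the value was -0.32 (adjusted p = 0.00713). MT-ATP6 has a nuclear copy in the table, MTATP6P1, whose counts over all libraries came to 1.97% of those of MT-ATP6.

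Replicates of the same number were weakly correlated within each line, so fits with the replicate as a block were made as well. With the replicate block 3 of the 10 genes passed in UWB1.289, MT-CO1, MT-ATP6 and MT-ND5, a large membrane subunit of complex I. MT-ND5 measured 2620.3, 2856, 3239 and 3062 CPM with DMSO and 3352, 2793, 3646 and 3651 CPM with olaparib, so the groups overlapped through olaparib replicate 2. Its log2 fold change was 0.19 with an adjusted p = 0.189 in edgeR without the block and 0.19 with an adjusted p = 0.0549 with it.

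**Figure D3:**
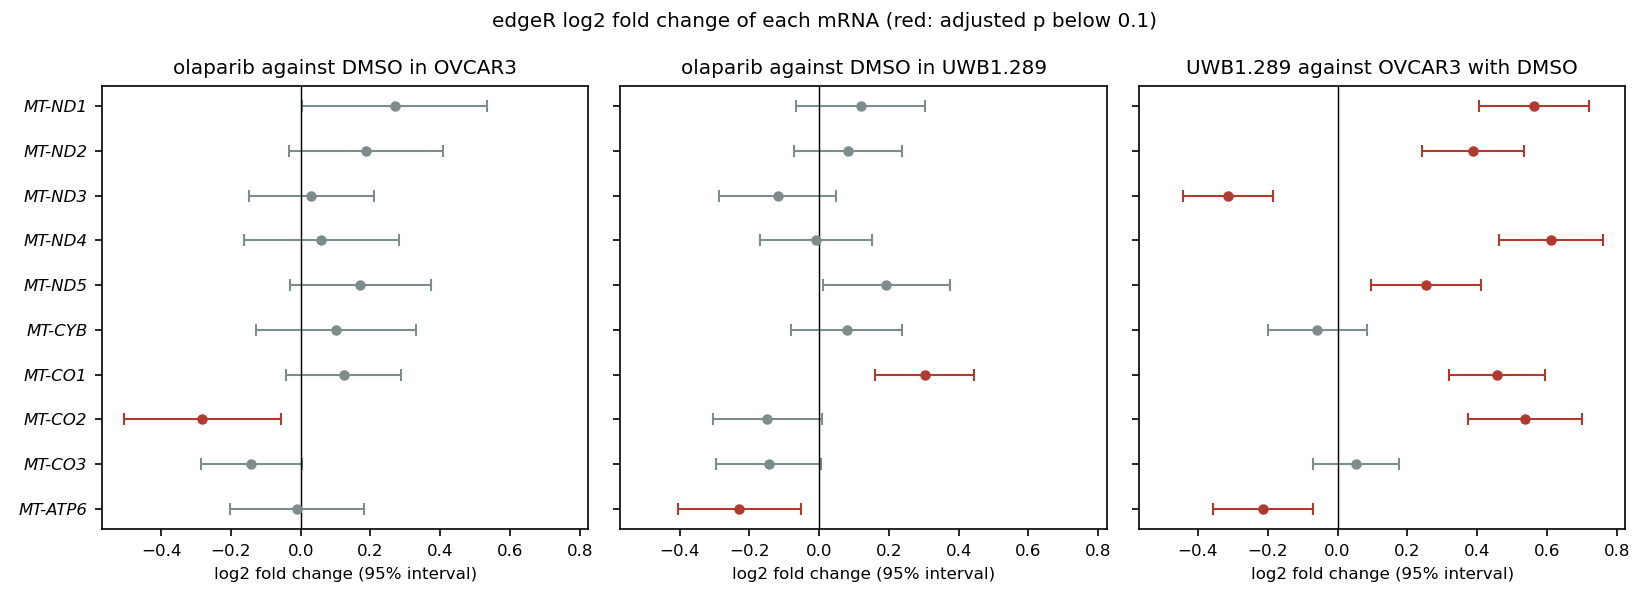
Log2 fold change of each of the 10 mRNAs (x axis, point) with its 95% interval (bar) in edgeR for olaparib against DMSO in each line and for UWB1.289 against OVCAR3 with DMSO, red where the adjusted p was below 0.1. In both olaparib comparisons the points lie between -0.28 and 0.30, and in the comparison of the lines they spread from -0.31 to 0.61.

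Whether olaparib acted differently on these genes in UWB1.289 and OVCAR3 was tested itself, as an interaction over the 16 libraries. None of the 10 genes passed in edgeR, none had an unadjusted p below 0.05, and DESeq2 called none either, while 10.9% of all genes passed. The differences (UWB1.289 effect minus OVCAR3 effect) ran from -0.22 for MT-ATP6 to 0.18 for MT-CO1 on the log2 scale, with 95% intervals within -0.50 and 0.42. The calls of MT-CO1 and MT-ATP6 in UWB1.289 and of MT-CO2 in OVCAR3 were therefore not shown to differ between the lines.

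Without drug most of these mRNAs differed between the lines, in both directions. With DMSO, 6 genes were higher in UWB1.289, namely MT-ND1, MT-ND2, MT-ND4, MT-ND5, MT-CO1 and MT-CO2, and MT-ND3 and MT-ATP6 were lower. These 8 of 10 stand beside 79.9% of all genes tested in that comparison (39.8% higher and 40.1% lower), and 6 of the 10 did not overlap between the lines, beside 69.4% of all genes. The median log2 fold change was 0.32 over the 10 genes and -0.02 over all genes. None of the differences exceeded 2-fold, which 38.4% of all genes did. The comparison shares its OVCAR3 and UWB1.289 DMSO libraries with the olaparib comparisons.

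MT-ND4, a proton-pumping subunit of complex I, differed most. It measured 8644, 8125, 9767 and 7313 CPM in OVCAR3 and 14350.0, 12708, 11828 and 12917 CPM in UWB1.289, and all UWB1.289 libraries were higher. The log2 fold change was 0.61 (SE 0.0732, adjusted p = 1.01e-08 in edgeR). MT-ND1 was higher by 0.56, MT-CO2 by 0.54, MT-CO1 by 0.46 and MT-ND2 by 0.39 on the log2 scale, all without overlap, and MT-ND5 by 0.25 with overlap.

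MT-ND3 went the other way, at 8871, 7511, 8405 and 7780.2 CPM in OVCAR3 and 6367, 6899.7, 6832 and 6128 CPM in UWB1.289. The highest UWB1.289 library was below the lowest OVCAR3 library, and the log2 fold change was -0.31 (SE 0.0633, adjusted p = 5.23e-05 in edgeR). MT-ATP6 was lower by a log2 fold change of -0.21 (adjusted p = 0.00690) with overlapping groups. MT-CYB, the core subunit of complex III (-0.06, adjusted p = 0.458), and MT-CO3, a further core subunit of complex IV (0.05, adjusted p = 0.429), did not pass.

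The make-up of the 10 mRNAs, which does not depend on the library total, also differed between the lines. With DMSO, MT-ND4 made up 13.7% ± 0.914 of their summed counts in OVCAR3 and 18.6% ± 0.956 in UWB1.289, MT-ATP6 18.7% ± 0.545 and 14.4% ± 0.635, and MT-ND3 13.2% ± 0.618 and 9.43% ± 0.658. The shares of 4 genes were higher in UWB1.289 without overlap (MT-ND1, MT-ND4, MT-CO1 and MT-CO2), those of 4 were lower (MT-ND3, MT-CYB, MT-CO3 and MT-ATP6), and 2 overlapped. With olaparib, 9 of 10 shares overlapped with DMSO in OVCAR3 and 7 of 10 in UWB1.289, where MT-CO1, MT-ND2 (10.5% to 11.4%) and MT-CYB (7.45% to 8.09%) were higher. Shares sum to 100%, so they are not independent of each other. Such shares were not computed for all genes. In levels, 69.4% of all genes did not overlap between the lines with DMSO. Between DMSO and olaparib, 25.7% of all genes did not overlap in OVCAR3 and 14.7% in UWB1.289.

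**Figure D4:**
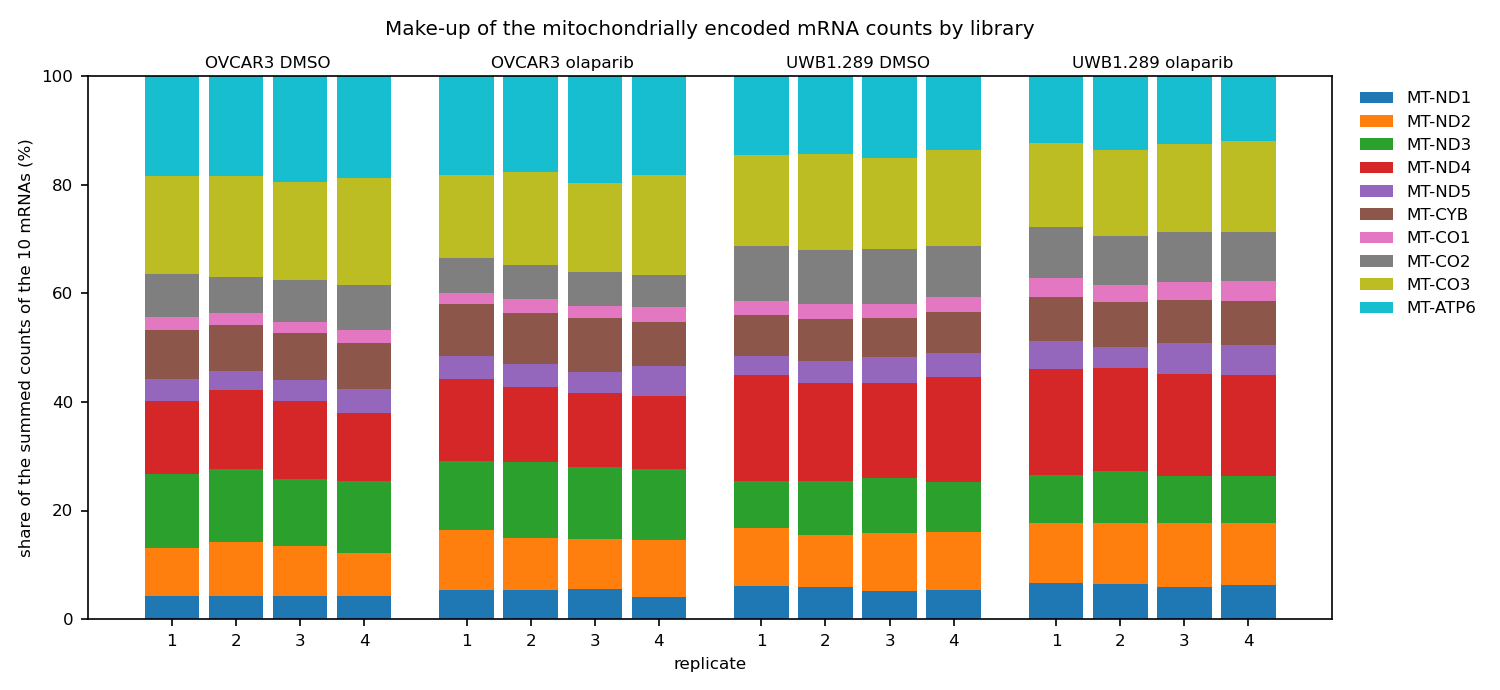
Share of each mRNA in the summed counts of the 10 mRNAs (y axis, percent, stacked) in each library, by replicate and group. The red band (MT-ND4) is wider and the green (MT-ND3) and cyan (MT-ATP6) bands are narrower in UWB1.289 than in OVCAR3, with or without olaparib.

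Within groups the 10 mRNAs mostly rose and fell together from library to library. After removal of the group means from the log2 CPM of the 16 libraries, the 45 pairs of genes had a median Pearson r of 0.71, and 42 were positive. MT-ND1 and MT-CYB were closest, with r = 0.97, and all 3 negative pairs involved MT-ND5, the lowest being MT-ND1 with MT-ND5 at r = -0.15. The median r of the 10 genes with MT-RNR1, the 12S rRNA row, was -0.47. OVCAR3 olaparib replicates 1 and 4 were the extremes, with a mean log2 deviation of 0.25 and -0.24, and the count of both rRNA rows per count of the 10 mRNAs was 0.662 and 0.999 in them. These values are descriptions over libraries that share their scaling factors. The genes outside the mitochondrial genome most like the mean of the 10 in the same 16 deviations were picked as the highest of all genes tested. They were NFYB (r = 0.91), LIPT1 (r = 0.86), PROSER1 (r = 0.86), HES1 (r = 0.86) and DPF2 (r = 0.86). LIPT1 had a mean of only 2.94 CPM.

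Of the other rows of the mitochondrial genome 13 of 21 tested rose in OVCAR3 and 7 of 20 in UWB1.289, and none fell. They were rows of tRNA genes and, in OVCAR3, MT-ND6. MT-ND6, the complex I subunit encoded on the opposite strand from the 10 genes, measured 471, 453, 471 and 445 CPM with DMSO and 899, 805, 680.3 and 839 CPM with olaparib in OVCAR3. All olaparib libraries were higher, with a log2 fold change of 0.81 (SE 0.0787, adjusted p = 2.26e-07 in edgeR). In UWB1.289 it measured 105, 110.3, 126 and 126 CPM with DMSO and 113, 116, 116 and 120.3 CPM with olaparib, with a log2 fold change of -0.01 (adjusted p = 0.976). The effect in UWB1.289 minus that in OVCAR3 was -0.82 (SE 0.114, adjusted p = 1.32e-05), and with DMSO MT-ND6 was lower in UWB1.289 by a log2 fold change of -1.98 (adjusted p = 1.68e-20). Of all tested rows on that strand 6 of 7 rose in OVCAR3 and 0 of 5 in UWB1.289, beside 15.5% and 7.77% of all genes that rose, and the OVCAR3 count was 4 with DESeq2 and never lower in the other settings. Whether the counting used strand is not given in the sources used here. Without it, reads of these rows and of transcripts running the other way through them cannot be told apart. Which molecules the reads of the MT-ND6 row came from in these poly(A)-primed libraries was not tested.

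Of the 14 rows of tRNA genes on the strand of the 10 mRNAs, 10 were tested in OVCAR3 and 7 of them rose, and 11 were tested in UWB1.289 and 7 of them rose, beside 15.5% and 7.77% of all genes. None fell, and those that did not pass had log2 fold changes of -0.03 to 0.27 in OVCAR3 and -0.04 to 0.37 in UWB1.289. The UWB1.289 count was 9 with the replicate block and 3 without olaparib replicate 4. MT-TL1, the tRNA gene between the 16S rRNA and MT-ND1, measured 1078, 1418, 1347 and 1183 CPM with DMSO and 2234, 2128, 1729 and 2559 CPM with olaparib in OVCAR3. Its log2 fold change there was 0.79 (adjusted p = 8.18e-06 in edgeR). In UWB1.289 it measured 1896, 2022, 2168 and 2307 CPM with DMSO and 4018, 2745, 4241 and 4005 CPM with olaparib, and the log2 fold change was 0.84 (SE 0.104, adjusted p = 6.14e-06 in edgeR). Neither pair of groups overlapped. All tRNA rows together held 0.257% ± 0.0268 of the counts with DMSO and 0.423% ± 0.0771 with olaparib in OVCAR3, and 0.288% ± 0.0325 and 0.487% ± 0.0911 in UWB1.289. Poly(A)-primed libraries do not measure mature tRNAs as such, and which molecules these reads came from was not tested.

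The rRNA rows did not pass in either olaparib comparison, with log2 fold changes of 0.09 and -0.08 in OVCAR3 and 0.06 and -0.01 in UWB1.289 for MT-RNR1 and MT-RNR2. Both were lower in UWB1.289 with DMSO, by log2 fold changes of -0.79 and -0.40 (adjusted p = 1.03e-07 and 5.19e-06 in edgeR). The rRNA count per count of the 10 mRNAs was 0.816 ± 0.101 in OVCAR3 and 0.527 ± 0.0796 in UWB1.289 with DMSO. Which molecules the rRNA reads of these poly(A)-primed libraries came from was not tested. MT-ATP8 and MT-ND4L, which overlap MT-ATP6 and MT-ND4, passed in neither olaparib comparison (-0.06 and 0.16 in OVCAR3, -0.19 and 0.15 in UWB1.289).

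Most nuclear genes for subunits of the respiratory chain and ATP synthase, taken here with complex II and cytochrome c, fell in OVCAR3. Of 80 tested there 56 fell and none rose, beside 16% and 15.5% of all genes, and their median log2 fold change was -0.29. None changed by more than 2-fold. In UWB1.289 9 of 81 fell and none rose, beside 6.1% of all genes, with a median of -0.09. The interaction of line and drug passed for 10 of 81 subunits, all less lowered or higher in UWB1.289, beside 5.09% of all genes. The replicate block raised the UWB1.289 count to 15, leaving out single libraries gave 4 to 15 (at most 5 without DMSO replicate 1, 2 or 3 or olaparib replicate 3 or 4, and 15 without olaparib replicate 1 or 2), and 22 passed the interaction with the block. Without single libraries the interaction count ran from 4 to 16, at 4 to 6 without UWB1.289 DMSO replicate 4, UWB1.289 olaparib replicate 2 or 3, OVCAR3 DMSO replicate 3 or 4 or OVCAR3 olaparib replicate 2 and at 16 without OVCAR3 olaparib replicate 3. In some settings 1 subunit passed the other way.

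The fall in OVCAR3 touched every complex. It comprised 22 of 36 nuclear complex I subunits, 2 of 4 of complex II, which has no mitochondrially encoded subunit, 8 of 10 of complex III with cytochrome c, 11 of 12 of complex IV and 13 of 18 of complex V. ATP5MC2, one of the genes for the c-ring of ATP synthase, measured 555, 520.3, 532 and 543 CPM with DMSO and 343, 366, 359 and 334 CPM with olaparib. All olaparib libraries were lower, with a log2 fold change of -0.61 (SE 0.0663, adjusted p = 1.10e-06 in edgeR), and ATP5MC3, which encodes the same c-ring protein, fell by 0.62. COX5B and COX7B of complex IV fell by 0.56 and 0.53, NDUFS1 and NDUFA5 of complex I by 0.56 and 0.54, CYC1 and UQCR10 of complex III by 0.42 and 0.40, and SDHC and SDHA of complex II by 0.48 and 0.30 on the log2 scale.

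In UWB1.289 the calls were 4 of 37, 0 of 4, 1 of 10, 2 of 12 and 2 of 18 in the same sequence. ATP5MC2 measured 407, 379.6, 393 and 364 CPM with DMSO and 339, 325, 279 and 278 CPM with olaparib, without overlap, and its log2 fold change was -0.34 (SE 0.0818, adjusted p = 0.00986 in edgeR). NDUFA4, a subunit of complex IV, fell by 0.35, NDUFC1 by 0.38 and NDUFB4 by 0.32 (both complex I), UQCRB of complex III by 0.24, ATP5MC3 by 0.23 and COX7B by 0.22. COX7B was the one named gene whose groups overlapped.

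**Figure D5:**
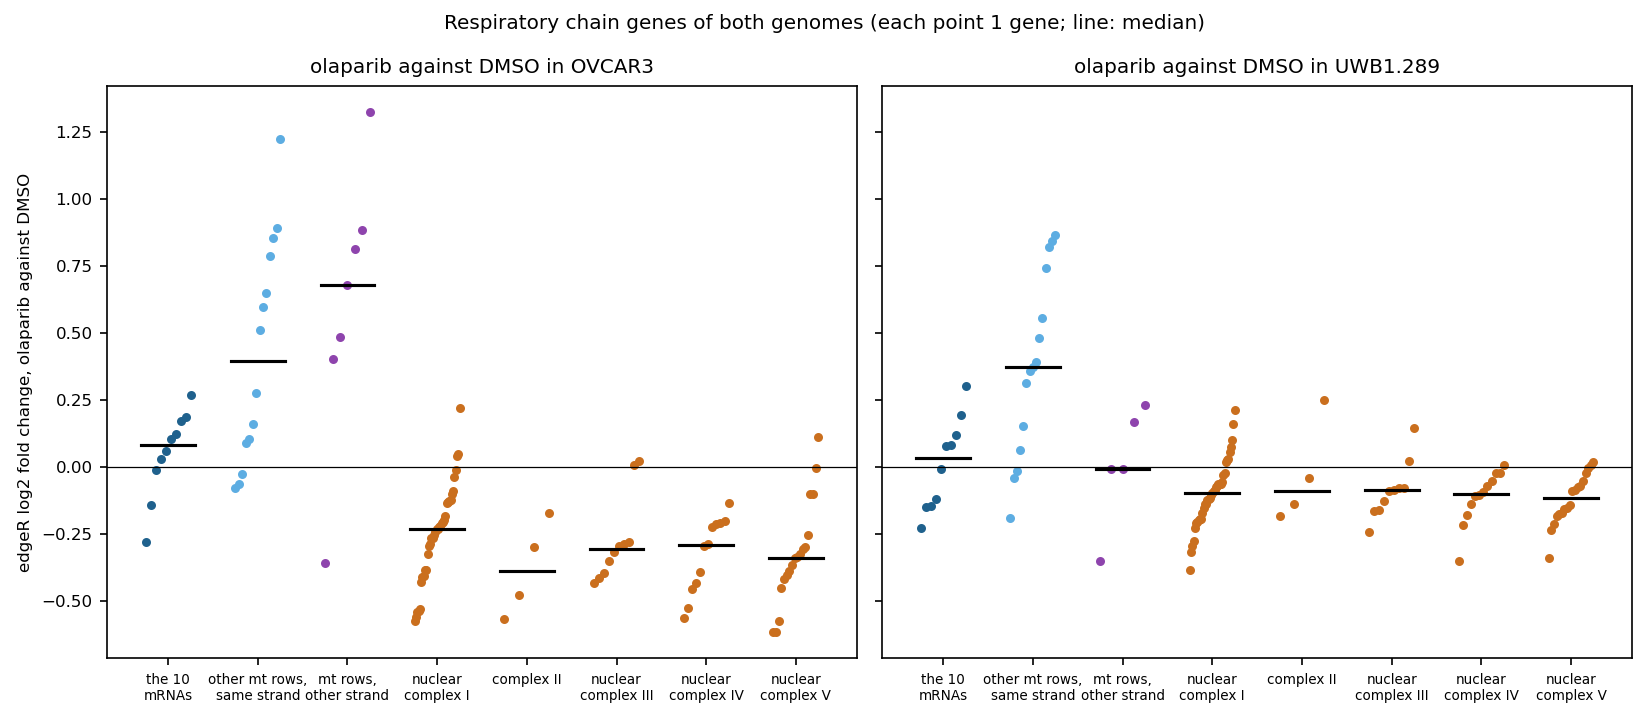
Log2 fold change of olaparib against DMSO in edgeR (y axis) in OVCAR3 (left) and UWB1.289 (right), each point 1 tested gene and each line a median, for the 10 mRNAs, the other mitochondrial (mt) rows of the same strand, the mt rows of the other strand and the nuclear subunits of complexes I to V (complex III with cytochrome c). The 10 mRNAs lie about 0, the medians of all nuclear complexes are below 0 in both lines, and the rows of the other strand have a median of 0.68 in OVCAR3 and -0.01 in UWB1.289.

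Nuclear genes that serve the mitochondrial genome passed the test in both directions. Of the genes for copying and transcribing mitochondrial DNA 2 of 20 rose and 1 fell in OVCAR3, where 15.5% of all genes rose and 16% fell. In UWB1.289 3 of 21 rose and 1 fell, where 7.77% of all genes rose and 6.1% fell. RRM2B, a p53-induced ribonucleotide reductase subunit, fell by 0.89 in OVCAR3 and by 0.85 in UWB1.289 on the log2 scale (adjusted p = 1.57e-04 and 0.00165 in edgeR). TWNK, the mitochondrial DNA helicase, rose by 0.21 and 0.54 (adjusted p = 0.0518 and 0.00915). TFAM, the main mitochondrial DNA packaging and transcription factor, and POLRMT, the mitochondrial RNA polymerase, were named for their roles and not by the rule, and their log2 fold changes were -0.05 and 0.16 in OVCAR3 and 0.07 and 0.24 in UWB1.289, without passing the test. In RNA processing and stability 1 of 21 rose and 1 fell in OVCAR3 and 1 of 21 rose in UWB1.289, lower shares than over all genes. PNPT1, an RNA-degrading enzyme of mitochondria that is also induced by interferon, rose by 0.28 in OVCAR3 (adjusted p = 0.0822) and by 0.76 in UWB1.289 (adjusted p = 2.20e-05), and FASTKD1 fell by 0.43 in OVCAR3.

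Of the regulators of mitochondrial biogenesis 2 of 8 fell in OVCAR3 and 1 of 7 rose in UWB1.289, beside 16% and 7.77% of all genes. PPARGC1B, a coactivator among them, moved in opposite directions. It measured 34.9, 30.5, 37.2 and 35.4 CPM with DMSO and 25.8, 22.2, 13.95 and 23.8 CPM with olaparib in OVCAR3, and 3.47, 2.503, 3.99 and 3.04 CPM with DMSO and 5.95, 5.16, 5.14 and 5.52 CPM with olaparib in UWB1.289. The groups did not overlap in either line, and the log2 fold changes were -0.69 (adjusted p = 0.00206 in edgeR) and 0.74 (adjusted p = 0.0652). The difference between the lines was 1.43 (SE 0.272, adjusted p = 7.94e-04). In UWB1.289 the call was lost with DESeq2 (adjusted p = 0.132), without the filter on low counts and without any 1 library other than DMSO replicate 3 or olaparib replicate 2. The highest adjusted p in edgeR was 0.172, without DMSO replicate 2. The related coactivator PPARGC1A fell by 0.77 in OVCAR3 (adjusted p = 0.0864) with overlapping groups and under 5 CPM in every library.

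Of the assembly factors 10 of 35 fell and 1 rose in OVCAR3, beside 16% and 15.5% of all genes, and COX20 (-0.40) and LYRM7 (-0.47) had the smallest adjusted p. In UWB1.289 1 of 35 fell, COX20 (-0.25), and none rose, beside 6.1% and 7.77% of all genes. Of the mitochondrial ribosomal proteins, which translate the 10 mRNAs, 10 of 73 fell and 3 rose in OVCAR3, and 2 of 74 rose and 1 fell in UWB1.289, all lower shares than over all genes. MRPL34 (-0.68) and MRPL43 (-0.30) had the smallest adjusted p in OVCAR3. In UWB1.289 MRPS9 (-0.37) and MRPS12 (0.28) had the smallest adjusted p.

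Nuclear copies of mitochondrial genes could take up reads of the 10 genes or give reads to them. Of 402 such rows 85 had a count, and their 25000 counts over all libraries came to 0.37% of the counts of the 10 genes. MTATP6P1 held 85.5% of them. It rose by 0.52 in OVCAR3 and 0.43 in UWB1.289 on the log2 scale (adjusted p = 0.0195 and 0.0245 in edgeR), with overlapping groups in both, while MT-ATP6 had log2 fold changes of -0.01 and -0.23. Reads that fit both rows are uncertain between them.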

How the data were processed

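Per the labels and the study's methods, RNA of 16 cell line samples was made into QuantSeq 3′ libraries. The authors used the reads as single-end reads. BBDuk removed adapters and poor bases, STAR 2.7.9a (2-pass mode) aligned the reads to hg38, and featureCounts 2.0.0 assigned them to genes of GENCODE release 38. How reads with several hits, overlapping genes and strand were treated is not given in the sources used here. The deposited values are raw counts, and 0 columns were left unused.

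The test was the quasi-likelihood F test of edgeR 4.0.16 under R 4.3.3, after filterByExpr and TMM scaling, with p-values adjusted by Benjamini-Hochberg over all tested genes. It was run on the 8 libraries of a line or of DMSO, and on all 16 for the difference between the lines. A gene passed at an adjusted p below 0.1, and the study's limits (also over 2-fold and an average count above 10) were counted beside it. All 10 genes passed the filter on low counts in each comparison. Intervals are 95% intervals, and p-values measure the spread between 4 replicates per group, which the design text describes only as repeats. Gene coordinates and sequences were read from hg38 with GENCODE release 44. The members and lists were chosen with earlier results of these data known. Of each list the 2 passing genes with the smallest adjusted p per olaparib comparison are named, as are genes past the study's limits, and likeness is Pearson's r to the mean log2 CPM (prior count 2) of the 10 genes after removal of group means.

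Replicate numbers come from the sample titles. Over 8799 genes, same-numbered DMSO and olaparib libraries correlated after removal of group means with r of 0.146 to 0.241 in UWB1.289 and 0.0422 to 0.167 in OVCAR3. In both lines DMSO replicate 1 was closer to an olaparib library of another number (0.152 beside 0.171 in UWB1.289, 0.0895 beside 0.134 in OVCAR3). These values do not settle whether the numbers pair the libraries. The values reported come from fits without the replicate block, and the block was run beside them. No libraries of a group were alike within sampling noise (lowest chi-square per gene 3.03). The test was tried on simulated counts with known log2 changes of size 2, where it recovered the changed genes in each comparison. Recovery of smaller changes, such as those reported for the mRNAs studied here, was not tested. In UWB1.289 the test made 38 false calls beside the 200 changed genes, a share above the threshold. Alternatives were DESeq2 1.42.0, its size factors, total counts, library sizes from nuclear rows, no filter, an adjusted p below 0.05, the replicate block, all 16 libraries in 1 fit and leaving out each library.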

Additional observations from a re-analysis of the deposited data

Results flagged for a closer look

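Of 48 sets of 4 replicate values examined, 4 held a library that stood apart by Dixon's criterion, which chance gives in about 1 of 20 sets. The sets share libraries and are not independent, so the count of 4 cannot be tested against that rate. In UWB1.289 olaparib replicate 2 was the highest for MT-ND3, with 7002 CPM beside 5652 to 5774 CPM in the other 3 libraries. The same library was the highest for MT-CO2, with 6712 CPM beside 5985 to 6104 CPM, and for MT-ATP6, with 10036 CPM beside 7928 to 8267 CPM. In OVCAR3 DMSO replicate 2 was the lowest for MT-ND5, with 1996 CPM beside 2568 to 2653 CPM. No cause was tested.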

How the results depend on the processing

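Between UWB1.289 and OVCAR3 with DMSO 8 of the 10 genes passed under each alternative and without each library, and the interaction of line and drug had 0 throughout. In OVCAR3 the count of 1 became 0 at an adjusted p below 0.05, 4 without the filter on low counts (3 higher, 1 lower) and 2 with the replicate block (MT-ND1 added), and without single libraries it ran from 0 to 4. It was 0 without DMSO replicate 1, 3 or 4 or olaparib replicate 2, 2 without DMSO replicate 2 or olaparib replicate 1 or 3, and 4 without olaparib replicate 4. In UWB1.289 the count of 2 became 1 at an adjusted p below 0.05, with DESeq2's size factors, with total counts, with library sizes from nuclear rows and with all 16 libraries. It was 3 with the replicate block and ran from 1 to 4 without single libraries, 4 being without olaparib replicate 2 and 2 without DMSO replicate 4. The block changed no other call of the 10 genes. The causes were not tested. The share of the 10 genes in each library moved by less than 1 SD, and no count past 2-fold left 0.

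Differences near 0 changed sign. With total counts MT-ATP6 in OVCAR3 was 0.0087, MT-ND4 in UWB1.289 0.022 and the difference between the lines for MT-CO3 0.0088. That difference for MT-ND5 was -0.0023 with library sizes from nuclear rows and -0.016 without the filter. Without single libraries the log2 fold change in OVCAR3 ran from -0.043 to 0.11 for MT-ND3, from -0.074 to 0.15 for MT-ND4, from -0.0015 to 0.23 for MT-CYB and from -0.098 to 0.071 for MT-ATP6, and in UWB1.289 from -0.055 to 0.047 for MT-ND4. The difference between the lines ran from -0.17 to 0.041 for MT-ND2, from -0.16 to 0.065 for MT-ND4, from -0.060 to 0.11 for MT-ND5, from -0.15 to 0.080 for MT-CYB and from -0.040 to 0.042 for MT-CO3. Of 710 recomputed log2 fold changes of the 10 genes, 640 kept direction and side of the threshold.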
